A study of Mus musculus with 6 samples.

Results

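The 8 genes *Clk1*, *Clk2*, *Clk3*, *Clk4*, *Srpk1*, *Srpk2*, *Prpf4b* and *Dyrk1a*, which encode SR protein kinases of the CLK, SRPK, PRP4 and DYRK groups, were followed through 6 mRNA-seq libraries of double positive (DP) thymocytes. They were taken by symbol from the deposited expression tables, where they are 8 of 23183 gene symbols and each has a value in every library. The values are FPKM, fragments per kilobase of transcript corrected for library depth. All 8 passed the filter on low values, which kept genes with 1 FPKM or more in 3 or more libraries. The lowest value of any of the 8 in any library was 9.42 FPKM.

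The libraries came from sorted thymocytes, the immature T cells that carry both CD4 and CD8, of C57BL/6 mice aged 6 weeks. The WT group (3 libraries) was *Nsrp1* f/f, with the floxed alleles and no Cre. The NSrp70-cKO group (3 libraries) was *Nsrp1* f/f CD4Cre, in which a transgene under CD4 enhancer and promoter elements deletes *Nsrp1*, the gene of the nuclear speckle protein NSrp70, from the late double negative stage on. Both groups carried the floxed alleles, so they differed in the Cre transgene as well as in *Nsrp1*. Whether libraries with different numbers came from different mice is not given in the labels, so that p-values measure the spread between these libraries, which may be technical.

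*Nsrp1*, listed under its older symbol *Ccdc55*, had 20.2, 20.7 and 21.1 FPKM in WT 1, 2 and 3 and 17.7, 15.8 and 15.0 in cKO 1, 2 and 3 (adjusted p = 0.00675, limma). The whole-gene value thus fell in cKO without reaching 0. The DP marker genes *Cd4*, *Cd8a*, *Rag1* and their like summed to between 4853 and 4936 FPKM in WT and between 6726 and 8846 in cKO. The estimated depth was 20.7 to 20.8 M fragments (M, mega) in WT and 13.1, 20.7 and 17.4 M in cKO 1, 2 and 3. WT libraries differed from each other by 1.46 to 1.58 times the counting noise and cKO libraries by 33.1 to 72.4 times, so the tests were also run with WT as 1 sample, the mean of its libraries. *Xist* had 69.8 to 72.0 FPKM in WT and 4.07 to 5.44 in cKO, and the Y-linked *Ddx3y* was listed at 0 in WT and had 26.2 to 35.0 FPKM in cKO. The labels give no sex, none of the 8 kinase genes lies on X or Y, and the genotype and what moves with these genes cannot be told apart.

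SR proteins are splicing factors with runs of arginine and serine, and the phosphates on those serines set where the proteins are and whether they can join the spliceosome. SRPK1 and SRPK2 act mainly in the cytoplasm, where they prepare SR proteins for import by transportin-SR. The CLK kinases act in the nucleus and release SR proteins from speckles, while PRP4 kinase (*Prpf4b*) works on the spliceosome and DYRK1A, a relative of the CLKs, phosphorylates splicing factors, NFAT and a cell cycle repressor complex. T cells rely on regulated splicing, for example of the transcript for the surface phosphatase CD45.

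The 4 CLK genes are paralogs, and how much sequence they share decides whether their values can be told apart. Their kinase domains are known for the LAMMER signature, of which the annotation holds a variant in *Clk3*. The 33 coding bases at this position, from the GENCODE M21 transcripts on GRCm38 (mm10), are printed as an example of how far the paralogs share their sequence. All 4 stretches lie in exon 11. Capitals mark the bases that all 4 genes share, 20 of 33.
*Clk1* (chr1:58412979-58413011, minus strand): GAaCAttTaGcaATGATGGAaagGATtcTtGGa
*Clk2* (chr3:89175407-89175439, plus strand): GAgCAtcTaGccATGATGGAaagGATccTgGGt
*Clk3* (chr9:57752147-57752179, minus strand): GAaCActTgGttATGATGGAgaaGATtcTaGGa
*Clk4* (chr11:51280373-51280405, plus strand): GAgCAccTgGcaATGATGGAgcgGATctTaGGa

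Over the whole coding sequence, *Clk1* and *Clk4* were the closest pair among the CLKs, with 74.8% identity and a longest shared run of 34 bases. The other 5 CLK pairs had 66.6% to 72.2% identity and longest runs of 14 to 18 bases, and *Srpk1* and *Srpk2* had 72.0% identity with a longest run of 17. In windows of 100 bases, close to the read length, the principal transcripts of 6 of the 8 genes shared no window with a transcript of any other gene. The exceptions were *Clk3*, which shared 13.2% of its windows with *Edc3*, and *Srpk2*, which shared 13.7% with *Kmt2e*, each an overlapping gene on the other strand. The library kit keeps strand, but the strand setting of the counting is not stated.

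Each CLK gene also has a coding exon 4 whose length is not a multiple of 3 and which is absent from at least 1 annotated transcript marked for nonsense-mediated decay. Skipping of this exon in *Clk1* is a known switch to a transcript without an active kinase. The exons are shown because a gene-level FPKM sums transcripts with and without them. They have 91, 85, 97 and 91 bases in *Clk1*, *Clk2*, *Clk3* and *Clk4*. Capitals mark the 6 bases at which the exons of *Clk1* and *Clk4* differ, the other 85 being identical, and no comparison is marked in the other 2.
*Clk1* (chr1:58420121-58420211, minus strand): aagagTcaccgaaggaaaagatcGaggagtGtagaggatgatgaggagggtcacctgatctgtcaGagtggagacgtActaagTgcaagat
*Clk4* (chr11:51273078-51273168, plus strand): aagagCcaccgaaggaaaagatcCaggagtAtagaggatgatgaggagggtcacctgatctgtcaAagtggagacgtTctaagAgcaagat
*Clk2* (chr3:89169618-89169702, plus strand): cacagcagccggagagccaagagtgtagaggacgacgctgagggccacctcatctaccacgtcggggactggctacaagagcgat
*Clk3* (chr9:57758627-57758723, minus strand): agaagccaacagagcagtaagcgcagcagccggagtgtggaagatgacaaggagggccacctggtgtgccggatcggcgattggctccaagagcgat

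In the WT DP thymocytes, *Clk3*, *Clk1* and *Clk4* were the most abundant of the 8 mRNAs, while *Clk2* was 7th of 8. FPKM is scaled to transcript length, and levels are set side by side on that basis. Scaling to length takes no account of isoform mix, base composition or overlapping genes. *Clk3* came first with a mean of 257 FPKM (range 253 to 262), followed by *Clk1* with 218 (216 to 219) and *Clk4* with 84.3 (83.2 to 85.3). *Prpf4b* had 52.6 FPKM (51.9 to 53.7) and *Dyrk1a* 47.3 (46.1 to 48.2). *Srpk1*, at 29.4 (27.9 to 30.4), and *Clk2*, at 27.9 (27.6 to 28.2), had overlapping ranges, and *Srpk2* was lowest with 16.1 (15.6 to 16.4). The ranges of all other neighbours in this order were separate.

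In the NSrp70-cKO libraries the order changed at both ends. *Clk1* had the highest mean, 211 FPKM (147 to 307), ahead of *Clk3* with 164 (146 to 190), and these ranges overlapped. *Clk2* fell to the last place with 13.6 FPKM (9.42 to 20.6), next to *Srpk2* with 14.4 (13.3 to 15.7), again with overlapping ranges. *Clk4* at 73.8 (48.4 to 110) and *Prpf4b* at 63.5 (56.6 to 73.8) also overlapped. In the plot of levels by library the WT points of each gene nearly coincide, whereas the cKO points of *Clk1*, *Clk2* and *Clk4* are spread over about a doubling.

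**Figure D1:**
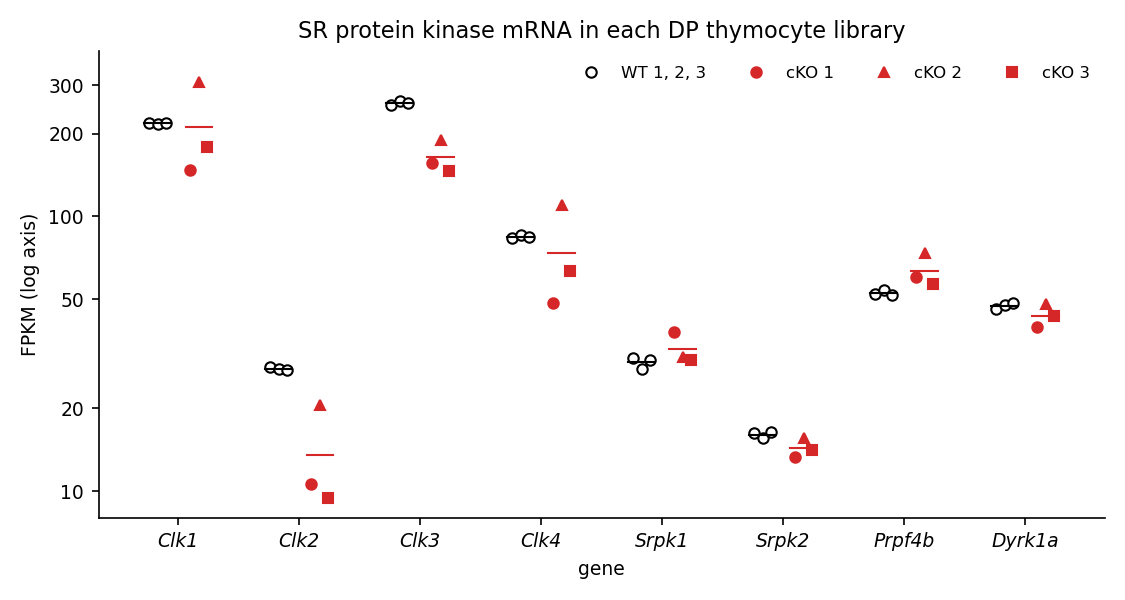
FPKM (log axis) of the 8 kinase genes in the 3 WT libraries (open circles) and the 3 NSrp70-cKO libraries (red, 1 symbol per library), with a line at the mean of each group. *Clk2* and *Clk3* lie below WT in all 3 cKO libraries, *Prpf4b* lies above, and *Clk1* runs from 147 to 307 FPKM within cKO.

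Of the 8 kinases, 2 differed between the genotypes, *Clk2* and *Clk3*, and both were lower in cKO. Across all genes tested, 65.5% were called (6766 of 10326 at an adjusted p under 0.05 from limma), 29.8% lower and 35.8% higher. The median log2 fold change was -0.14 over the 8 kinases and 0.04 over all genes tested. Fold changes are of log2(FPKM + 1), so those of weakly expressed genes come out too small. When the 3 WT libraries were taken as 1 sample, 15.9% of all genes and 0 of the 8 kinases passed limma's threshold, and 2 of the 8 had an unadjusted p under 0.05. Such bulk values do not tell fewer cells that express a gene from less RNA per cell.

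*Clk2* encodes a nuclear kinase that phosphorylates SR proteins and is also known for its part in insulin signalling. Its level was 28.2, 27.9 and 27.6 FPKM in WT 1, 2 and 3 and 10.6, 20.6 and 9.42 FPKM in cKO 1, 2 and 3. All 3 cKO values lay below all 3 WT values, with cKO 2 nearest to WT. The log2 fold change was -1.07 (SE 0.25, adjusted p = 0.00765 from limma), and the cKO mean was 48.6% of the WT mean. It was -1.39 without cKO 2 and -0.87 without cKO 3. Taking WT as 1 sample gave an adjusted p of 0.0924.

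*Clk3* encodes a member of the family that co-localises with SR proteins in speckles. It had 253, 262 and 257 FPKM in WT and 156, 190 and 146 FPKM in cKO. The cKO values again lay below all WT values, and the smallest gap was that of cKO 2. The log2 fold change was -0.66 (SE 0.104, adjusted p = 0.00149 from limma), the cKO mean being 63.7% of the WT mean. Its adjusted p was 0.0825 with WT as 1 sample. *Edc3*, the decapping cofactor gene on the opposite strand, had 21.9 to 22.6 FPKM in WT and 28.7 to 35.6 in cKO. It was higher (log2 fold change 0.55, adjusted p = 0.00229 from limma) where *Clk3* was lower, and its part in the value of *Clk3* was not tested. Each cKO library held *Clk3* at 56.9% to 73.7% of the WT mean and *Clk2* at 33.8% to 73.9%.

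*Clk1*, the best characterised CLK kinase, showed no single direction. It had 218, 216 and 219 FPKM in WT and 147, 307 and 178 FPKM in cKO. The library cKO 2 lay above all WT libraries and the other cKO libraries lay below them. The log2 fold change of -0.12 (SE 0.243, 95% confidence interval -0.69 to 0.46, adjusted p = 0.684 from limma) leaves room for a change of either sign. It was 0.11 without cKO 1 (adjusted p = 0.691) and -0.42 without cKO 2 (adjusted p = 0.00424), so 1 library decides its call and another its sign.

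*Clk4*, the closest relative of *Clk1*, behaved alike in its pattern over libraries. Its values were 83.2, 85.3 and 84.4 FPKM in WT and 48.4, 110 and 63.1 FPKM in cKO. As for *Clk1*, cKO 2 was the highest of all 6 libraries and cKO 1 the lowest. The log2 fold change was -0.27 (SE 0.261, 95% confidence interval -0.89 to 0.34, adjusted p = 0.382 from limma). Without cKO 2 it was -0.59 (adjusted p = 0.00281) and without cKO 1 it was -0.015 (adjusted p = 0.957). The gene on the other strand, *BC049762*, had at most 0.365 FPKM in any library.

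Neither of the SRPK kinases passed the test. *Srpk1* had 30.4, 27.9 and 30.0 FPKM in WT and 37.9, 30.9 and 30.0 in cKO, where cKO 1 stood well above the WT values and cKO 2 just above. Its log2 fold change was 0.15 (SE 0.102, 95% confidence interval -0.09 to 0.39, adjusted p = 0.234 from limma), and without cKO 1 it was 0.048. *Srpk2* had 16.3, 15.6 and 16.4 FPKM in WT and 13.3, 15.7 and 14.1 in cKO, with cKO 2 inside the WT range and the other cKO libraries below it. Its log2 fold change was -0.16 (SE 0.074, 95% confidence interval -0.33 to 0.02, adjusted p = 0.0982 from limma). *Kmt2e*, which encodes a histone methyltransferase family protein and overlaps *Srpk2* on the other strand, fell from 31.5 to 32.3 FPKM in WT to 16.4 to 21.3 in cKO (log2 fold change -0.76, adjusted p = 0.000688 from limma). Its part in the value of *Srpk2* was not tested.

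*Prpf4b*, the kinase of the tri-snRNP, was the only one of the 8 with every cKO value above every WT value, at 52.3, 53.7 and 51.9 FPKM in WT and 60.1, 73.8 and 56.6 in cKO. Of all genes tested, 39.2% had cKO above WT without overlap, and 33.3% had cKO below WT, as *Clk2* and *Clk3* did. The log2 fold change of *Prpf4b* was 0.26 (SE 0.10, 95% confidence interval 0.02 to 0.49), and its adjusted p of 0.0569 from limma missed the threshold. It was called in 3 of 15 alternative settings. With all libraries brought to 1 FPKM total, its fold change turned to -0.30, in a setting that moved the median of all genes to -0.45. *Dyrk1a* had 46.1, 47.5 and 48.2 FPKM in WT and 39.4, 48.0 and 43.2 in cKO, with cKO 2 within the WT range. Its log2 fold change was -0.12 (SE 0.080, 95% confidence interval -0.31 to 0.07, adjusted p = 0.216 from limma). It was called in 3 of 15 alternative settings, at -0.28 under quantile normalization (adjusted p = 0.0244), at -0.67 with 1 FPKM total (adjusted p = 0.00214) and at -0.18 without cKO 2 (adjusted p = 0.0217), and it was -0.05 without cKO 1.

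**Figure D2:**
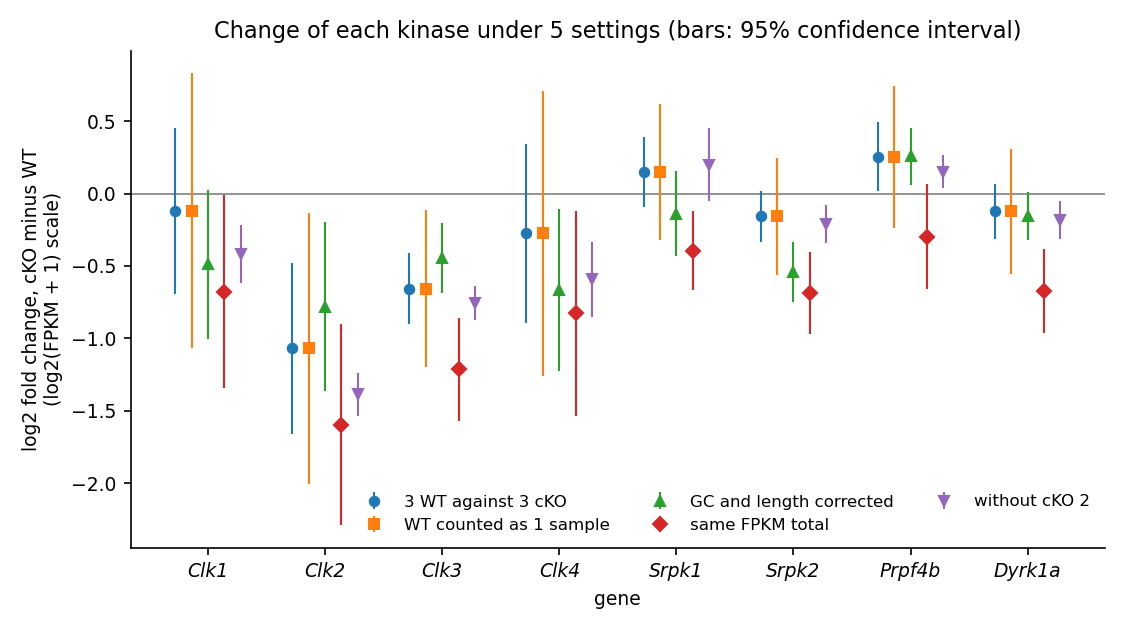
Log2 fold change (cKO minus WT, log2(FPKM + 1) scale) of each kinase with its 95% confidence interval from limma, under 5 settings. *Clk2* and *Clk3* lie below 0 in each of the 5, the intervals of *Clk1* and *Clk4* shrink when cKO 2 is left out, and *Prpf4b* lies below 0 only when all libraries are brought to 1 FPKM total.

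Some of these values went with the base composition of the transcripts. *Clk1*, *Clk4* and *Prpf4b* have a GC content of 40.8% to 42.4%, and *Clk2* and *Clk3* of 55.9% and 56.4%. Of the 2141 tested genes between 54% and 58% GC, 45.4% were lower and 22.6% higher in cKO, with a median log2 fold change of -0.22. Of the 940 genes between 39% and 43% GC, 8.19% were lower and 54.4% higher, with a median of 0.28. A fall of 2-fold or more, as *Clk2* had, was found in 7.47% of the first group. Corrected for GC content and length, the log2 fold change was -0.78 for *Clk2* (adjusted p = 0.0298) and -0.45 for *Clk3* (adjusted p = 0.00923). Under the same correction *Clk1* had -0.49 (adjusted p = 0.0882), *Clk4* -0.67 (adjusted p = 0.0454), *Srpk2* -0.54 (adjusted p = 0.00213) and *Prpf4b* 0.26 (adjusted p = 0.0312), all from limma. The calls of *Clk2* and *Clk3* remained, while 3 further kinases passed. Of all genes, 6117 of 10245 tested were called under this correction. The correction used the median length and GC content over a gene's coding transcripts. That length was 653 bases for *Srpk2* and 1018.5 for *Srpk1*, whose principal transcripts have 6491 and 4653 bases. For *Dyrk1a* it was 2311 against 5759 bases, for *Clk3* 1576 against 2496 and for *Clk4* 1527 against 1949. The corrected values of these kinases, *Srpk1* and *Srpk2* above all, thus rest on lengths well below those of the principal transcripts.

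The spread among the cKO libraries differed between the kinases. On the log2 scale, the SD over the 3 cKO libraries was 0.54 for *Clk1*, 0.56 for *Clk2* and 0.59 for *Clk4*, against 0.15 for the median of 6319 genes at a mean of 10 FPKM or more. These 3 kinases lay at percentiles 97.8 to 98.2 of those genes. The SDs of the other 5 kinases were 0.10 to 0.19, and no kinase exceeded 0.07 in WT. The estimated counting error of a kinase value was between 0.896% and 6.07%, the last for *Clk2* in cKO 1, where the level rested on about 272 fragments.

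The library cKO 2 carried most of this spread. It exceeded the mean of cKO 1 and cKO 3 by 0.90 for *Clk1*, 0.96 for *Clk2* and 0.96 for *Clk4* on the log2 scale, which put them at percentiles 99.1 to 99.3 of the same genes. The median of those genes was -0.05. Its depth was the one nearest to WT among the cKO libraries, and the part of depth in these values was not tested. In percent of the WT mean, cKO 2 held *Clk1* at 141%, *Prpf4b* at 140% and *Clk4* at 130%, whereas it held *Clk2* at 73.9% and *Clk3* at 73.7%. *Srpk1* was the one kinase of the 8 that was not highest in cKO 2 among the cKO libraries, with 129% in cKO 1. The summed FPKM of the 8 kinases was 728, 736 and 734 in WT and 513, 796 and 541 in cKO.

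**Figure D3:**
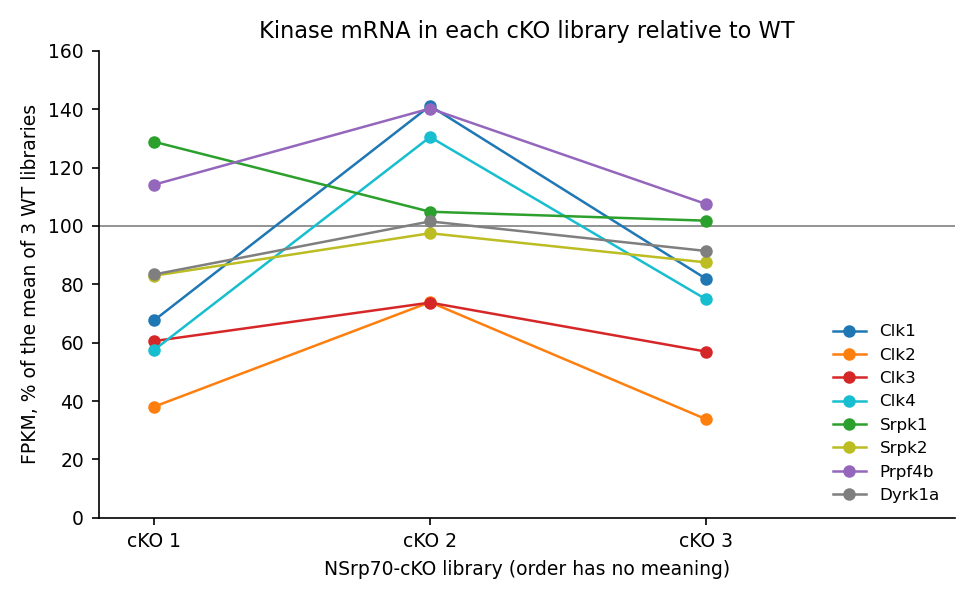
FPKM of each kinase in the 3 cKO libraries in percent of the mean of the 3 WT libraries; lines only join the values of 1 gene. In cKO 2, *Clk1*, *Clk4* and *Prpf4b* reach 130% to 141% while *Clk2* and *Clk3* stay near 74%; in cKO 1, *Clk2* is at 38.0% and *Srpk1* at 129%.

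Ratios between kinases within a library are not changed by a scaling factor for the whole library, though they are by quantile normalization. *Clk1* and *Clk4* kept nearly the same ratio in all 6 libraries although each varied about 2-fold in cKO. The *Clk1* to *Clk4* ratio was 2.62, 2.54 and 2.59 in WT and 3.04, 2.79 and 2.83 in cKO. The cKO ratios were all above the WT ratios, by 0.16 on the log2 scale (exact two-sided permutation test, p = 0.1, the smallest that 3 libraries against 3 allow). This difference was -0.0082 after quantile normalization. The pair nearest to each other in profile was *Srpk2* and *Dyrk1a*, both of which varied less in cKO. Their ratio was 0.353, 0.328 and 0.340 in WT and 0.338, 0.326 and 0.325 in cKO, a difference of -0.04 with overlapping groups (exact permutation test, p = 0.2).

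Other ratios within the family differed more. The *Clk1* to *Clk2* ratio was 7.73, 7.75 and 7.92 in WT and 13.9, 14.9 and 18.9 in cKO. The *Clk1* to *Clk3* ratio was 0.861, 0.827 and 0.851 in WT, where *Clk3* was the higher, and 0.945, 1.62 and 1.22 in cKO. The *Clk2* to *Clk4* ratio lay between 0.327 and 0.339 in WT and between 0.149 and 0.219 in cKO. The *Clk2* to *Clk3* ratio overlapped between the genotypes, since cKO 2 had 0.109 against 0.107 to 0.111 in WT. The same held for *Clk3* to *Clk4*, at 3.05 to 3.07 in WT and at 3.22, 1.73 and 2.32 in cKO.

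Between the families, the *Clk3* to *Prpf4b* ratio had the smallest range of all pairs in cKO, at 2.59, 2.57 and 2.59, with 4.84, 4.87 and 4.96 in WT. Both genes followed the same course over the cKO libraries from different starting levels. The *Srpk1* to *Srpk2* ratio was 1.87, 1.79 and 1.83 in WT and 2.84, 1.97 and 2.13 in cKO, a difference of 0.32 on the log2 scale (exact permutation test, p = 0.1) that was 0.16 without cKO 1. The CLK genes held 80.1% to 80.3% of the summed FPKM of the 8 kinases in WT and 70.6%, 78.9% and 73.4% in cKO (difference of means -5.86 percentage points, -9.07 after quantile normalization, exact permutation test, p = 0.1). Over the 28 pairs of kinases, the smallest adjusted p was 0.175.

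**Figure D4:**
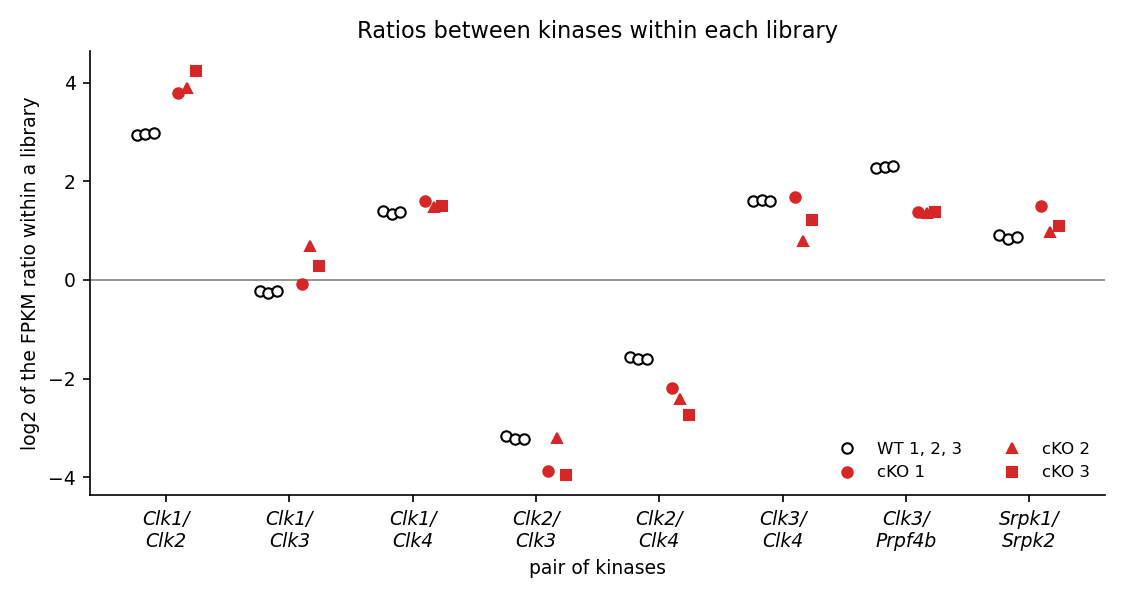
Log2 of the FPKM ratio of pairs of kinases within each library, for the 6 CLK pairs, *Clk3* to *Prpf4b* and *Srpk1* to *Srpk2*; open circles are WT and red symbols the 3 cKO libraries. The *Clk1* to *Clk4* ratio stays between 2.54 and 3.04 (linear), and the *Clk3* to *Prpf4b* ratio forms 2 tight groups.

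Likeness of profiles was measured as the root-mean-square difference over the 6 libraries, on the log2 scale and relative to the WT mean, against the other 10325 genes tested. For *Clk1*, *Clk4* ranked 14th with a difference of 0.12, and for *Clk4*, *Clk1* ranked 17th. The genes nearest to *Clk1* were *Lrrc57* (0.04), *Fbxo48* (0.06) and *Tyw5* (0.06), and those nearest to *Clk4* were *Rbm48* (0.04), *Cntf* (0.06) and *Slc15a2* (0.07). *Fbxo48* has only 0.475 to 1.89 FPKM, where the scale compresses differences. *Tyw5* showed the pattern at 12.5 to 13.7 FPKM in WT and 8.93, 17.4 and 10.6 FPKM in cKO.

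*Clk2* and *Clk3* had other neighbours. Nearest to *Clk2* were *Ranbp9* (0.04), *Ankrd16* (0.05) and *Zfp692* (0.07), with *Ranbp9* at 41.4 to 43.9 FPKM in WT and 16.6, 29.7 and 15.3 in cKO. Nearest to *Clk3* were *Ier5*, *Asb13* and *Tmppe* (each 0.03). Fewer than 10 genes lay within 0.1 of *Clk1* (9), *Clk2* (8) or *Clk4* (9), whereas 270 lay within 0.1 of *Clk3*. The counts were 172 for *Srpk1*, 192 for *Prpf4b*, 557 for *Dyrk1a* and 619 for *Srpk2*. The kinases with few such genes are those with the widest spread in cKO, so the counts are no separate result. *Clk3* ranked 862nd in likeness to *Clk2*.

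The related kinases mostly moved in the direction of *Clk2* and *Clk3*. Of 12 tested relatives and other kinases that can phosphorylate SR proteins or the splicing machinery, 9 were lower, 1 was higher and 2 did not pass. Their median log2 fold change was -0.36. Over all genes tested, 29.8% were lower and 35.8% higher, shares that also apply beside the lists below. *Cdk9*, the transcription elongation kinase, fell from 38.8 to 40.1 FPKM in WT to 18.8 to 21.7 in cKO (log2 fold change -0.96). Among the DYRK relatives, *Dyrk2* (-0.87) and *Dyrk1b* (-0.73) were lower, which *Dyrk1a* was not shown to be. *Dyrk1b* had 29.4 to 30.5 FPKM in WT and 23.8, 13.7 and 16.4 in cKO, lowest in cKO 2, where *Dyrk1a* was highest of the cKO libraries.

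The other relatives that were lower were *Akt1* (-0.45), *Hipk2* (-0.43), *Cdk11b* (-0.39), *Cdk12* (-0.34), *Akt2* (-0.30) and *Cdk13* (-0.29). *Hipk1* (0.03) and *Hipk3* (0.02) did not pass. *Top1*, a DNA topoisomerase that also has SR protein kinase activity, was the one that rose, from 57.3 to 59.0 FPKM in WT to 86.7 to 101.4 in cKO (log2 fold change 0.72, adjusted p = 0.000435 from limma). *Srpk3*, *Dyrk3*, *Dyrk4* and *Hipk4* were below the filter. With WT as 1 sample, 1 of the 12 was called.

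The genes of the SR protein substrates went both ways under the size-factor scaling. Of 12 tested SR protein and Tra2 genes, 3 were higher, 3 were lower and 6 did not pass, with a median of 0.09. Over all genes tested, 65.5% passed. *Srsf3* (0.78) and *Tra2b* (0.60) were the furthest above WT, and *Srsf6* (-0.79) and *Srsf4* (-0.73) the furthest below. The counts of the list became 0 higher and 7 lower both under quantile normalization and with all libraries brought to 1 FPKM total. *Srsf5* followed the course of *Clk1*, with 712 to 729 FPKM in WT and 552, 889 and 654 in cKO (adjusted p = 0.738 from limma), a gene picked out here after its values were seen.

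Of the 8 genes for phosphatases that remove SR protein phosphates, their regulators and the import receptor, 4 were higher and 1 was lower, with a median of 0.19. The split turned to 1 higher and 4 lower under quantile normalization and to 0 higher and 5 lower with 1 FPKM total. *Tnpo3*, the transportin-SR that carries phosphorylated SR proteins into the nucleus, rose the furthest, from 35.7 to 36.8 FPKM in WT to 90.2, 47.5 and 74.4 in cKO (log2 fold change 0.90, adjusted p = 0.00827 from limma). The catalytic subunit gene *Ppp2ca* was higher (0.40) and *Ppp1r10*, which encodes a nuclear partner of protein phosphatase 1, was lower (-0.30). That call was lost in 5 of the 6 settings that left out 1 library, all but the one without cKO 2.

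The genes that work with PRP4 kinase were mostly higher, as were 35.8% of all genes tested. Of 12 tri-snRNP genes, 11 were higher and 1 was lower, with a median log2 fold change of 0.58, and with 1 FPKM total 3 were higher and 3 lower. *Ppih* (1.13), a cyclophilin of the U4/U6 particle, and *Prpf31* (1.03), which bridges U4/U6 and U5, rose the furthest, and *Sart1* was lower (-0.46). *Prpf31* had 17.4 to 17.7 FPKM in WT and 43.8, 28.9 and 39.5 in cKO, nearest to WT in cKO 2, whereas *Prpf4b* was furthest from WT there. With WT as 1 sample, 3 of the 12 were called.

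Of 16 partners and substrates of DYRK1A, 8 were higher and 6 were lower, with a median of 0.19, and with 1 FPKM total 0 were higher and 10 lower. In the DREAM repressor complex, which DYRK1A helps to assemble, *Lin37* (0.61) and *Tfdp1* (0.52) were higher and *E2f4* (-0.91) was lower. *Nfatc1* (-0.86), whose product DYRK1A drives out of the nucleus, was lower, from 22.1 to 22.8 FPKM in WT to 11.7 to 12.2 in cKO. Of the other NFAT genes in the list, *Nfatc2* was lower (-0.76) and *Nfatc3* higher (0.35). *Nfatc3* was the most abundant of them, with a mean of 144 FPKM in WT. Over these 5 lists, 47 of 60 genes tested were called, and 9 with WT as 1 sample, a setting in which the share over all genes was 15.9% (65.5% otherwise).

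**Figure D5:**
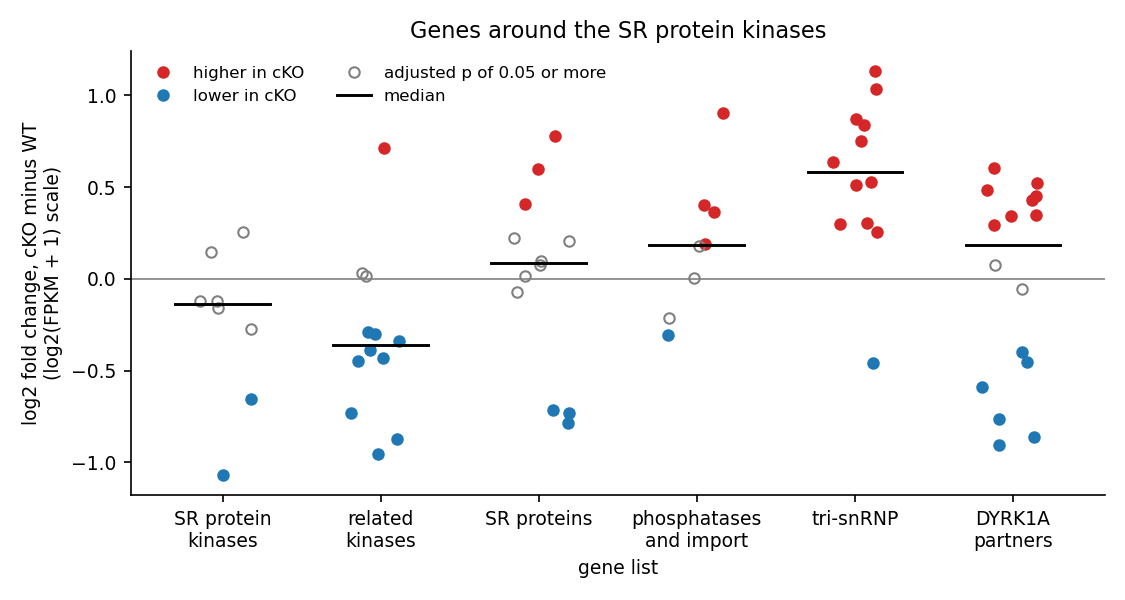
Log2 fold change (cKO minus WT, log2(FPKM + 1) scale) of every tested gene in the kinase group and in 5 lists around it; filled points passed limma's threshold and the black line is the median of a list. The medians run from -0.36 for the related kinases to 0.58 for the tri-snRNP, with -0.14 for the 8 kinases.

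Other gene groups moved with the genotype beside the kinases, where 35.8% of all genes tested were higher in cKO and 29.8% lower. All 16 cell cycle genes of the list were higher, their summed FPKM being 1302 to 1313 in WT and 2526 to 2847 in cKO. Of 9 tested stress and immediate early genes, 4 were higher and 4 were lower, with sums of 1263 to 1271 in WT and 2006 to 2517 in cKO. The 4 higher were heat shock genes and the 4 lower immediate early genes. Most of the sums was *Hspa8*, at 798 to 806 FPKM in WT and 1366 to 1942 in cKO. Of 8 genes of mature single-positive T cells, 5 were lower and 1 was higher, with a median of -1.70 and summed levels of 213 to 215 FPKM in WT and 183 to 207 in cKO. The erythroid genes summed to 1.96 to 2.72 FPKM in WT and 12.3 to 26.6 in cKO, with 2 of 5 tested and both higher.

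Markers of other cells were low. B cell genes summed to 22.6 to 24.03 FPKM in WT and 26.6 to 39.4 in cKO, with 1 of 4 tested and higher. Myeloid genes stayed at 5.05 to 6.13 FPKM in all libraries, with none of 3 tested genes called. Dendritic cell genes summed to at most 0.712, NK cell genes to at most 1.82 and thymic epithelial genes to at most 3.98 FPKM, with *Foxn1* and *Krt5* listed at 0 in every library. In these sums cKO 2 lay nearest to WT among the cKO libraries for the cell cycle, stress, B cell, erythroid and thymic epithelial lists. The same held for the DP markers, and for the myeloid and dendritic cell lists cKO 2 lay within the WT range. It lay furthest from WT for the mature single-positive T cell and NK cell lists. The sums were not adjusted for the FPKM total of a library, which was smallest in cKO 2 among the cKO libraries. The part of any of these lists in the kinase values was not tested.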

How the data were processed

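Polyadenylated RNA of sorted DP thymocytes was sequenced from directional libraries as paired-end reads. After trimming by fastx trimmer, the authors aligned the reads by Tophat against mm10 and deposited FPKM values from Cufflinks, 1 per gene symbol and library. Versions of these tools, their annotation and their strand option are not given in the sources used here. The study's own test needs gene counts and was replaced by limma 3.58.1 (R 4.3.3): FPKM was divided by median-of-ratios size factors (1.00 to 1.01), and log2(FPKM + 1) of the 10326 genes at 1 FPKM or more in at least 3 of 6 libraries was fitted by genotype (lmFit, eBayes with trend, Benjamini-Hochberg adjustment over all of them at 0.05). Ratios and shares were tested by exact two-sided permutation over libraries.

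Library depth was inferred from the 1-fragment spacing of low values at 2524 single-transcript genes, with an assumed fragment length of 200, and 67.2% to 72.2% of the low values lay within 0.1 of a whole fragment, too few for a count test. Intervals and errors built on it cover counting error only. Symbols were matched to GENCODE M21 (22110 directly, 664 by a RefSeq synonym, 38 to several genes, 371 to none), and the genome and transcript sequences are of GRCm38. Python 3.11.15, numpy 2.4.6, pandas 2.3.3, scipy 1.17.1 and matplotlib 3.10.9 were used. Tested on simulated data with 10326 genes, the limma fit called 86 of 100 genes changed 2-fold, 100 of 100 changed 4-fold and 10 of 10126 unchanged genes. The simulation gave WT and cKO the same spread and drew genes independently. In these data the cKO spread was far larger, so the counts say nothing on false calls here.

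Named were the 8 kinases, *Nsrp1*, genes that overlap a kinase gene, every tested related kinase, up to 2 called genes per direction in each list and the 3 nearest profiles of each CLK gene. *Srsf5*, *Nfatc2* and *Nfatc3* were added after their values were seen, and some marker, stress and X- or Y-linked genes were named besides. The kinases and the lists were chosen with earlier results of these data known. Same-numbered WT and cKO libraries deviated with correlations of -0.02, 0.04 and 0.03 and were not treated as pairs. The 15 alternatives covered pseudocount, filter, scaling, replicate block, trend, WT libraries as 1 sample, GC content and length (splines with 5 degrees of freedom) and each library left out.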

Additional observations from a re-analysis of the deposited data

How the results depend on the processing

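The number of kinases called was 2 in the report. It was 0 when WT was taken as 1 sample, 6 when all libraries were brought to 1 FPKM total and 5 when GC content and length were corrected for, and with 1 library left out it ranged from 2 to 7, the 7 without cKO 2. Of all genes, 7083 of 10326 tested were called with 1 FPKM total and 6117 of 10245 with the GC and length correction. Without cKO 2, 7654 of 10326 were called. The cause of these shifts was not tested. With WT as 1 sample, the genes called fell from 6766 to 1645 and the listed genes from 47 to 9. That setting has fewer samples and no spread among WT libraries, and the part of each in the fall was not tested. The fold changes of *Clk2* and *Clk3* were below 0 in all 15 alternatives, from -1.60 to -0.78 and from -1.22 to -0.45, and called in 14 of them.

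The sign turned for *Clk1* with 1 library left out (-0.42 to 0.11, above 0 without cKO 1), for *Prpf4b* with the same FPKM total (-0.30) and for *Srpk1* with the same FPKM total (-0.40) and with the GC and length correction (-0.14). In the same FPKM total setting 902 genes were higher and 6181 lower, against 3693 and 3073 in the report. Relative to the median of all genes it left *Prpf4b* at 0.16 and *Srpk1* at 0.06. The *Clk1* to *Clk4* ratio turned to -0.0082 under quantile normalization. With a replicate block, 2 kinases, 46 listed genes and 6467 genes in all were called, and no call among the 8 kinases changed.

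The smallest p of the exact tests was 0.1 by design, which says nothing on how firm a ratio is. The depth of 13.1 M fragments in cKO 1 limits *Clk2* most, and isoforms were not analysed here.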
